A study of Mus musculus with 8 samples.

Results

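Mouse colon tumours were examined for the genes that oxidise, conjugate and export foreign compounds and endogenous lipids: cytochromes P450 (Cyp), aldehyde dehydrogenases (Aldh), aldo-keto reductases (Akr), carboxylesterases (Ces), glutathione S-transferases (Gst), sulfotransferases (Sult), UDP-glucuronosyltransferases (Ugt) and ATP-binding cassette transporters (Abc, subfamilies a to g). Members were taken by symbol and by the annotation as protein coding in the authors' deposited table, which gave 23 genes among 1428 listed ones, 1097 of them protein coding. Values were compared between 4 libraries labelled Wildtype (WT) and 4 labelled miR-29ab1Vilin-KO (KO), all C57BL/6N and all from colon tumours. Mice had received the carcinogen azoxymethane together with dextran sodium sulfate, a colitis-inducing agent. In the KO mice the miR-29ab1 locus was disrupted in the intestinal epithelium alone, so the other cells of the tumour kept it. The labels do not give the animals' age, whether the WT mice carried any engineered allele, or whether each library came from its own mouse, so the spread behind every p-value is that of 8 libraries and may be technical.

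The pathway works in steps. P450s, aldehyde dehydrogenases and carboxylesterases add or uncover a reactive group. Transferases then attach glutathione, sulfate or glucuronic acid, and ABC transporters use ATP to pump the products or lipids across membranes. In the gut these genes are best known from the absorptive epithelium, where they meet dietary and microbial compounds before the blood does. Several members carry the family name but serve other ends: Cyp11a1 starts steroid hormone synthesis, Aldh1a2 makes retinoic acid, Aldh6a1 and Aldh7a1 degrade amino acids, Abca3 moves phospholipid in lung surfactant, and Abcc8 is the regulatory subunit of a potassium channel.

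The deposited table lists only genes with an unadjusted p below 0.05, which is 7.15% of the 19985 genes implied by its adjusted p-values. Every member therefore differed by that measure through being listed, and the fold changes of listed genes are larger on average than those of unselected ones. Levels are normalized counts, which are read counts divided by a size factor per library. The listed genes held between 1202677 and 2180787 reads per library, a sum that is not the library depth. No row named Mir29 was among the listed genes, so the deletion itself could not be checked. KO replicate 4 stood apart: it topped the KO group in 75.0% of all genes listed higher, so values are given with and without it.

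Of the 23 members, 16 were listed higher in KO tumours and 7 lower, a share higher of 69.6%, where 58.1% of all listed genes were higher and 41.9% lower. Fold changes of the authors' deposited table had a log2 median of 1.45 among the 16, beside 1.00 over the 829 listed genes that were higher, and -1.19 among the 7, beside -0.88 over the 599 that were lower. Of the 21900 protein-coding symbols in RefSeq, whether expressed in colon or not, 4.66% were listed, and of the 272 that carry these family names 22, or 8.09%. By family these were 8 of 50 Abc genes, 5 of 21 Aldh, 3 of 23 Gst, 4 of 99 Cyp, 1 of 19 Ces and 1 of 21 Sult, and none of 22 Ugt or 17 Akr genes; the Cyp share of 4.04%, the Ces share of 5.26% and the Sult share of 4.76% lie near the share of all symbols. The member left over is Cyp2d37-ps, which the deposited table calls protein coding but whose symbol is not among those of RefSeq.

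A single member, Gstm7, passed an adjusted p of 0.05 in the authors' deposited table, where 0.56% of the listed genes did; it was also the single member below an adjusted p of 0.1, where 1.61% of the listed genes were. In 6 members the KO values lay all above or all below the WT values (called separate groups here), 26.1% of the 23 against 44.7% of all listed genes. They included Gstm7, Gstm5 and Cyp11a1 on the lower side and Abcc3 and Abca3 on the higher side. Separate groups were less frequent among the 16 members listed higher (18.8%, beside a background of 41.3%). Among the 7 listed lower the share was near the background (42.9%, beside 49.4%). These shares are a description and were not tested. Values were also rescaled by TMM factors, a scaling that assumes most genes unchanged. The factors came from the 1428 listed genes alone, all selected for a difference, so that assumption could not be relied on. With them 5 members had separate groups. Among the 5 was Gstm6, and Abca3 was no longer one.

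**Figure D1:**
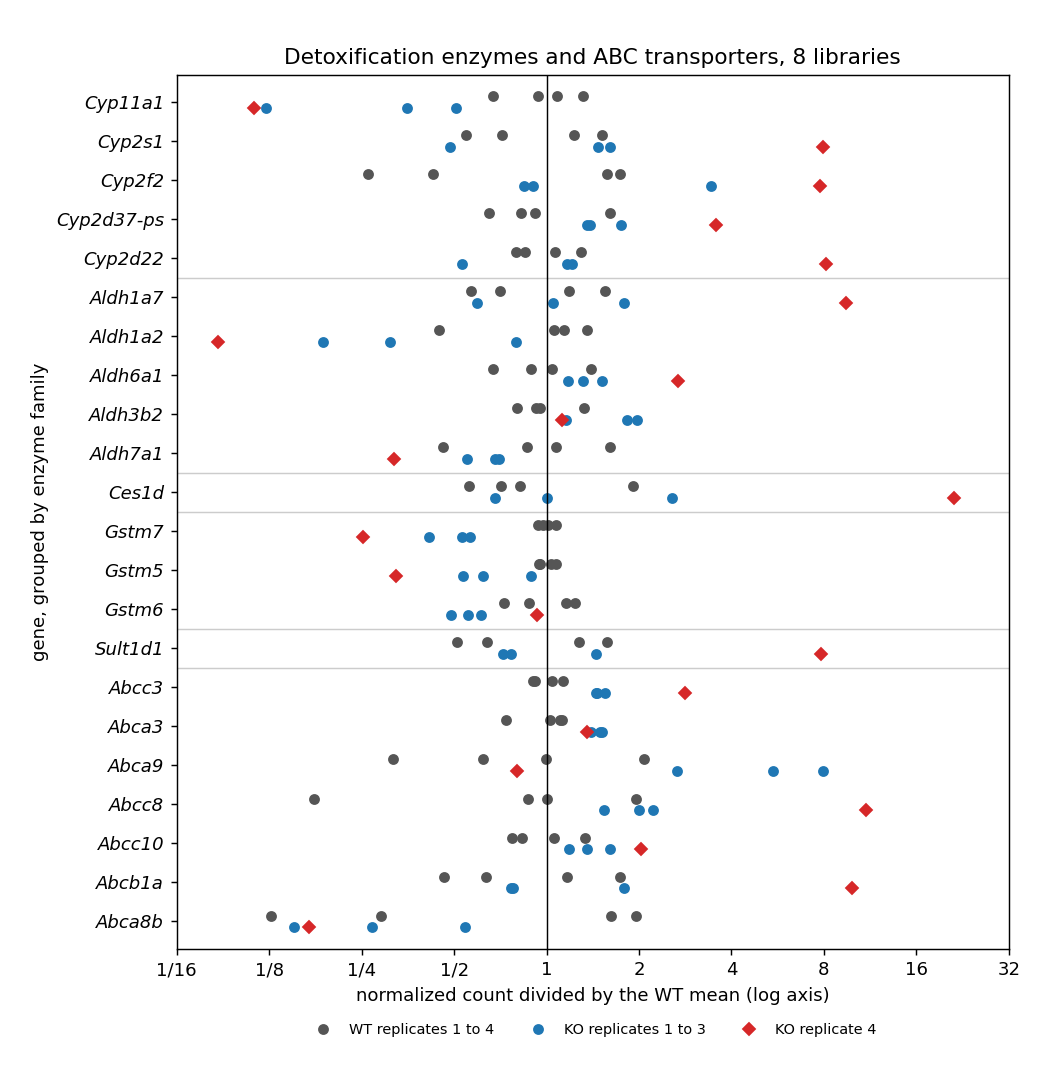
Normalized count of 22 of the 23 genes in each library, divided by the mean of the 4 WT libraries, on a log axis; grey points are WT, blue points KO replicates 1 to 3 and red diamonds KO replicate 4, with lines between enzyme families. KO replicate 4 lies far to the right of the other libraries in most genes listed higher, while Gstm7 shows all 4 KO points left of all 4 WT points.

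The glutathione S-transferases were the one family whose listed members all lay lower in KO tumours. Glutathione S-transferases of the mu class join glutathione to electrophiles, and Gstm7, Gstm5 and Gstm6 were the 3 members listed out of 7 Gstm genes in RefSeq. No Gsta, Gstp or Gstt gene was listed. They are neighbours: in the coordinates of the deposited table, which are those of its C57BL/6NJ gene models, Gstm5 lies at chr3:113499440-113502305 on the plus strand, Gstm7 at chr3:113534664-113540147 on the minus strand and Gstm6 at chr3:113547158-113552052 on the minus strand. Gaps of 32358 and 7010 bases separate them.

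Gstm7 had 981, 912, 1039.6 and 947 normalized counts in WT replicates 1 to 4 and 513, 401, 546 and 246 in KO replicates 1 to 4. The WT libraries lay close together, and the highest KO library stayed well below the lowest WT library. The mean was 970.1 ± 54.3 in WT (SD, n = 4) and 426 ± 136 in KO (SD, n = 4). By the authors' deposited table its log2 fold change was -1.19 with a DESeq2 adjusted p of 0.0461, and refitting the reads in DESeq2 put the standard error at 0.27. Gstm7 fell in KO by this test; the remaining KO libraries, with KO replicate 4 left out, averaged 487, or 0.50 times the WT mean. An edgeR quasi-likelihood refit gave an unadjusted p of 0.000728 and an adjusted p of 0.867, so the call at an adjusted p of 0.05 was made by DESeq2 alone; over all alternatives the adjusted p ran from 0.022 to 1.

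Gstm5 was the most abundant of the 3 per length, at 1512 ± 94.3 normalized counts per kilobase in WT, followed by Gstm7 at 606 ± 33.9 and Gstm6 at 166 ± 39.8 (SD, n = 4). Its normalized counts were 1836, 1829, 2074 and 1990.0 in WT and 1029, 1198, 1715 and 625 in KO. KO replicate 3 came near the WT libraries but the groups did not overlap. Its log2 fold change by the authors' deposited table was -0.76, with a DESeq2 adjusted p of 0.613. Gstm6 overlapped between groups, at 324 ± 77.7 in WT and 209 ± 63.0 in KO, and the authors' deposited table puts its log2 fold change at -0.63. Its overlap came from KO replicate 4, whose 300.4 normalized counts exceeded 2 of the WT libraries, whereas KO replicates 1 to 3 held 158, 180.0 and 198 and lay below all of them.

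The 3 genes summed to between 3116 and 3397 normalized counts in the WT libraries and between 1171 and 2459 in the KO libraries. Gstm7 made up 29.3% to 30.6% of that sum in WT, 30.2% in KO replicate 1 and 21.0% to 22.5% in KO replicates 2 to 4. Reads shared between near-identical genes bear on such values. No stretch of 50 bases in the longest GENCODE M21 transcript of Gstm7 or of Gstm5 recurred in a transcript of another gene, while 11.5% of such windows in Gstm6 did, mostly in Gstm3. Nothing in the labels says how such reads were counted, so the Gstm6 value is less certain than the other two.

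**Figure D2:**
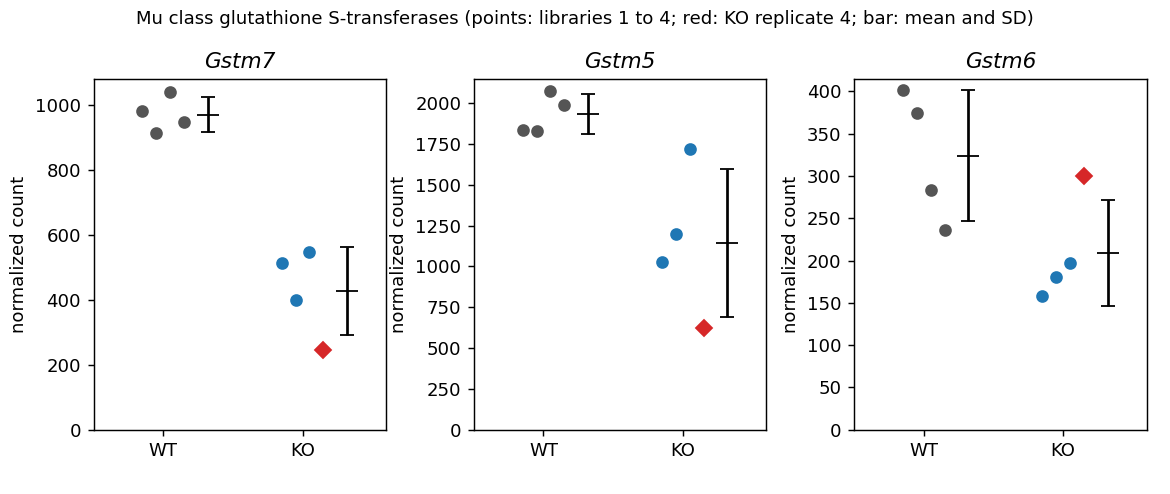
Normalized counts of Gstm7, Gstm5 and Gstm6 in each library, with the axis from 0; grey points are WT, blue points KO replicates 1 to 3, the red diamond KO replicate 4, and the black bars give the mean and SD of 4 libraries. Gstm7 and Gstm5 show no overlap between groups, and in Gstm6 the KO replicate 4 value of 300.4 lies within the WT range.

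Because neighbouring Gstm genes lay lower together, their promoters were read, as were those of the other members. RefSeq promoter windows of equal length across the annotated start, in build GRCm38.p6, were matched by symbol for 15 of the 23 genes. The core of the antioxidant response element, which the stress regulator Nrf2 binds, was searched as TGACNNNGC on both strands, and it stood in the first listed promoter of 5 of the 15 (33.3%), beside 12.5% of 27025 promoters and 14.8% of the 782 promoters of listed protein-coding genes. These were Gstm5, Aldh1a2 and Abca8b, all listed lower, and Abcb1a and Abcc10, both listed higher. The core that the aryl hydrocarbon receptor binds, GCGTG on either strand, stood in 5 of 15, also 33.3%, beside 32.5% of all promoters and 47.4% of those of listed genes. With 15 promoters these shares are a description. The first annotated start of Gstm7 and the 3 starts of Gstm6 did not hold the antioxidant core letters. Gstm5 and the second annotated start of Gstm7 are shown because they hold them, and Abcb1a as a gene listed higher that holds them too. The Gstm7 core lies upstream of the second annotated start but downstream of the first, whose window overlaps the one shown. Capitals mark the antioxidant cores and, in Gstm5, also GCGTG, which reads CACGC on the strand shown. The first such stretch in Gstm5 stands alone, and the second overlaps the antioxidant core.
Gstm5, chr3:107895604-107895903, plus strand: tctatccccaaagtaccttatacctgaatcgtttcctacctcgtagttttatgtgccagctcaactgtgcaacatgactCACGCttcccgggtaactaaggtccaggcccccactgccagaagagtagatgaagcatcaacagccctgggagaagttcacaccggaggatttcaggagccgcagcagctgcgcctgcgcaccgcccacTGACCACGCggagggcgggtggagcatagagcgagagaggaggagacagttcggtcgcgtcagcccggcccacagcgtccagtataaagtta
Gstm7, chr3:107931565-107931864, minus strand: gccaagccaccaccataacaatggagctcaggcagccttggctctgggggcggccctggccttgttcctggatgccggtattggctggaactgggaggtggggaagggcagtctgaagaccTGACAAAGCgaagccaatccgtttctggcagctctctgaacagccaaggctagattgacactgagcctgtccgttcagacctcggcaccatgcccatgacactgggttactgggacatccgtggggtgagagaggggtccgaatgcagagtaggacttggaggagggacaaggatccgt
Abcb1a, chr5:8566841-8567140, plus strand: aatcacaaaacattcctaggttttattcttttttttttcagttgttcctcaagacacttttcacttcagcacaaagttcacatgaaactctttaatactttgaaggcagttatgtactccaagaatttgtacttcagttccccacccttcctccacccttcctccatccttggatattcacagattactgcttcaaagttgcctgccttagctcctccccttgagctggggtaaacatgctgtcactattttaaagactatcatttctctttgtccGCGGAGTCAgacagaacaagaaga

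Of the 5 cytochromes P450, 1 was listed lower and 4 higher. Cyp11a1, the mitochondrial enzyme that cleaves the side chain of cholesterol, was the one listed lower. It had 47.7, 41.1, 29.3 and 57.7 normalized counts in WT replicates 1 to 4 and 15.4, 5.36, 22.2 and 4.89 in KO replicates 1 to 4. All KO libraries lay below all WT libraries, although the counts were low, from 5 to 57 reads. The log2 fold change was -1.86 in the authors' deposited table with a DESeq2 adjusted p of 0.273. Its lower level held without KO replicate 4, at 0.33 times the WT mean.

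The 4 other P450s were listed higher, and in each KO replicate 4 was the highest library. Cyp2s1, a P450 of epithelia outside the liver, had 348 ± 156 normalized counts in WT and 1001.4 ± 1188 in KO (SD, n = 4). KO replicate 4 held 2764 and KO replicates 1 to 3 held 169 to 560.5, a range that overlaps the WT one of 190.2 to 527. Cyp2f2, a P450 best known from lung airway cells, had 50.2 ± 38.3 in WT and 162 ± 163 in KO, with 389 in KO replicate 4. Cyp2d22, a mouse member of the drug-oxidising Cyp2d group, had 89.4 ± 20.4 in WT and 247 ± 321 in KO, with 727 in KO replicate 4. Leaving that library out, the ratio of the KO to the WT mean was 1.19 for Cyp2s1, 1.73 for Cyp2f2 and 0.97 for Cyp2d22. Cyp2d37-ps, a symbol that marks a pseudogene, had 27.0 ± 11.4 in WT and 54.2 ± 28.2 in KO, with a ratio of 1.496 when KO replicate 4 was left out. Log2 fold changes of these 4 ran from 1.008 to 1.70 in the authors' deposited table, with DESeq2 adjusted p-values of 0.678 to 0.70.

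Among aldehyde dehydrogenases, which turn reactive aldehydes into acids, 3 were listed higher and 2 lower, and no gene had separate groups. Aldh1a7, a close relative of Aldh1a1, had 20.4, 55.5, 42.5 and 25.3 normalized counts in WT replicates 1 to 4 and 37.6, 64.3, 21.4 and 339.5 in KO replicates 1 to 4. Apart from KO replicate 4 the KO libraries lay within or near the WT range. Its log2 fold change was 1.69 in the authors' deposited table with a DESeq2 adjusted p of 0.68, and 7.49% of its 50-base windows recurred in Aldh1a1. Aldh6a1, the mitochondrial enzyme of valine breakdown, had 276 ± 84.1 in WT and 461 ± 190.3 in KO. Its ratio of means was 1.67, and 1.33 without KO replicate 4, where an edgeR refit gave an unadjusted p of 0.124. Aldh3b2 had 211 ± 48.2 in WT and 321 ± 93.5 in KO, and it was one of 3 members listed higher in which KO replicate 4 was not the highest KO library; 24.2% of its 50-base windows recurred elsewhere, mostly in Aldh3b3.

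The 2 aldehyde dehydrogenases listed lower overlapped between groups as well. Aldh1a2, a retinoic acid producing enzyme, was low throughout, at 23.0 ± 8.95 normalized counts in WT and 7.92 ± 7.25 in KO, down to 1.96 in KO replicate 4. Aldh7a1, which acts in lysine breakdown, had 761 ± 363 in WT and 427 ± 134 in KO, and WT replicate 3, at 349, lay below 3 of the KO libraries. Their log2 fold changes in the authors' deposited table were -1.53 and -0.83, with DESeq2 adjusted p-values of 0.684 and 0.70.

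Ces1d, a carboxylesterase that hydrolyses esters and stored lipid, had the largest deposited fold change of the 23 genes. It had 26.3, 89.4, 33.4 and 38.4 normalized counts in WT replicates 1 to 4 and 31.8, 120.0, 47.2 and 992 in KO replicates 1 to 4. One library set the difference: KO replicate 4 was 14.96 times the mean of the other KO libraries, and these overlapped WT. The log2 fold change was 2.67 in the authors' deposited table with a DESeq2 adjusted p of 0.405, and without KO replicate 4 an edgeR refit gave 0.50 with an unadjusted p of 0.389.

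Sult1d1, a cytosolic sulfotransferase that acts on catecholamines, showed the same form. WT replicates 1 to 4 had 207, 518, 638 and 260.0 normalized counts, and KO replicates 1 to 4 had 293, 588, 311 and 3172. KO replicates 1 to 3 lay within the WT range. The log2 fold change was 1.43 in the authors' deposited table with a DESeq2 adjusted p of 0.707. The ratio of means was 0.98 once KO replicate 4 was left out.

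ABC transporters were the largest family, with 7 listed higher and 1 lower. Among the exporters of the multidrug resistance type, Abcc3, which moves conjugated compounds and bile acids out of epithelial cells, had 1904, 2068, 1677 and 1646 normalized counts in WT replicates 1 to 4. KO replicates 1 to 4 had 2668, 2816, 2646 and 5158, all above every WT library. The mean was 1824 ± 199 in WT and 3322 ± 1226 in KO (SD, n = 4), or 0.87 on the log2 scale by the authors' deposited table, with a DESeq2 adjusted p of 0.32. The difference did not rest on KO replicate 4 alone: the other KO libraries averaged 1.49 times the WT mean, and an edgeR refit without it gave an unadjusted p of 0.00114. Abcc10, another drug exporter, had 503 ± 129 in WT and 776 ± 186 in KO, with overlap between groups. The Abcc10 ratio of means was 1.54, and 1.38 without KO replicate 4, where an edgeR refit gave an unadjusted p of 0.0553.

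Abcb1a encodes P-glycoprotein, the drug efflux pump of the apical membrane. Its normalized counts were 763, 1395, 2082 and 553 in WT replicates 1 to 4 and 919, 2149, 932 and 11805 in KO replicates 1 to 4. KO replicate 4 was 8.85 times the mean of the other KO libraries, of which replicates 1 and 3 lay below the WT mean of 1198. The authors' deposited table puts its log2 fold change at 1.72, with a DESeq2 adjusted p of 0.656, and this became 0.15 without KO replicate 4 in an edgeR refit, with an unadjusted p of 0.739. Of the 4948 windows of 50 bases in Abcb1a, 840 recurred in other transcripts, mostly those of its paralogue Abcb1b.

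Abca3, the lipid transporter, was steadier. It had 1397, 936, 1425 and 1302 normalized counts in WT replicates 1 to 4 and 1911, 1767, 1885 and 1717 in KO replicates 1 to 4. The groups were separate and KO replicate 4 was the lowest of the KO libraries. Its log2 fold change was 0.52 in the authors' deposited table with a DESeq2 adjusted p of 0.473, and without KO replicate 4 the ratio of means was 1.47.

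A further 3 ABC genes were scarce, below 10 normalized counts per kilobase in both groups. Abca9 and Abca8b, neighbours on chromosome 11, pointed in opposite directions: Abca9 had 9.78 ± 7.48 normalized counts in WT and 41.2 ± 30.6 in KO, and Abca8b had 64.1 ± 59.4 in WT and 18.1 ± 11.6 in KO. In Abca9 KO replicate 4 was the lowest KO library, at 7.83, so that the KO mean without it was 5.35 times the WT mean. WT replicates 1 and 4 held most of the Abca8b counts, at 125 and 104, against 18.5 and 8.09 in replicates 2 and 3. Abcc8, the sulfonylurea receptor, had 5.80 ± 4.23 in WT and 24.2 ± 26.3 in KO, with 63.6 in KO replicate 4. The Abcc8 ratio of means was 1.91 once that library was left out, and an edgeR refit put its log2 fold change at 0.92 with an unadjusted p of 0.215, beside 2.06 in the authors' deposited table.

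Taking the 16 members listed higher together, KO replicate 4 was the highest KO library in 13, or 81.3%, beside 75.0% of all genes listed higher. It exceeded 2 times the mean of the other KO libraries in 11 of the 16, or 68.8%, beside 39.8%. The median ratio of the KO to the WT mean was 2.72 with it and 1.40 without it; over all 829 genes listed higher these were 2.00 and 1.496. The 7 members listed lower had a median ratio of 0.44 with KO replicate 4 and 0.50 without it. Over all 599 genes listed lower these were 0.54 and 0.60. KO replicate 4 was the lowest KO library in 5 of the 7, or 71.4%, beside 59.3% of all genes listed lower. Of the 23 members, 2 changed sides when KO replicate 4 was left out, namely Cyp2d22 and Sult1d1, both listed higher. The other members listed higher, 87.5% of the 16, stayed on their side, beside 99.6% of all genes listed higher.

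**Figure D3:**
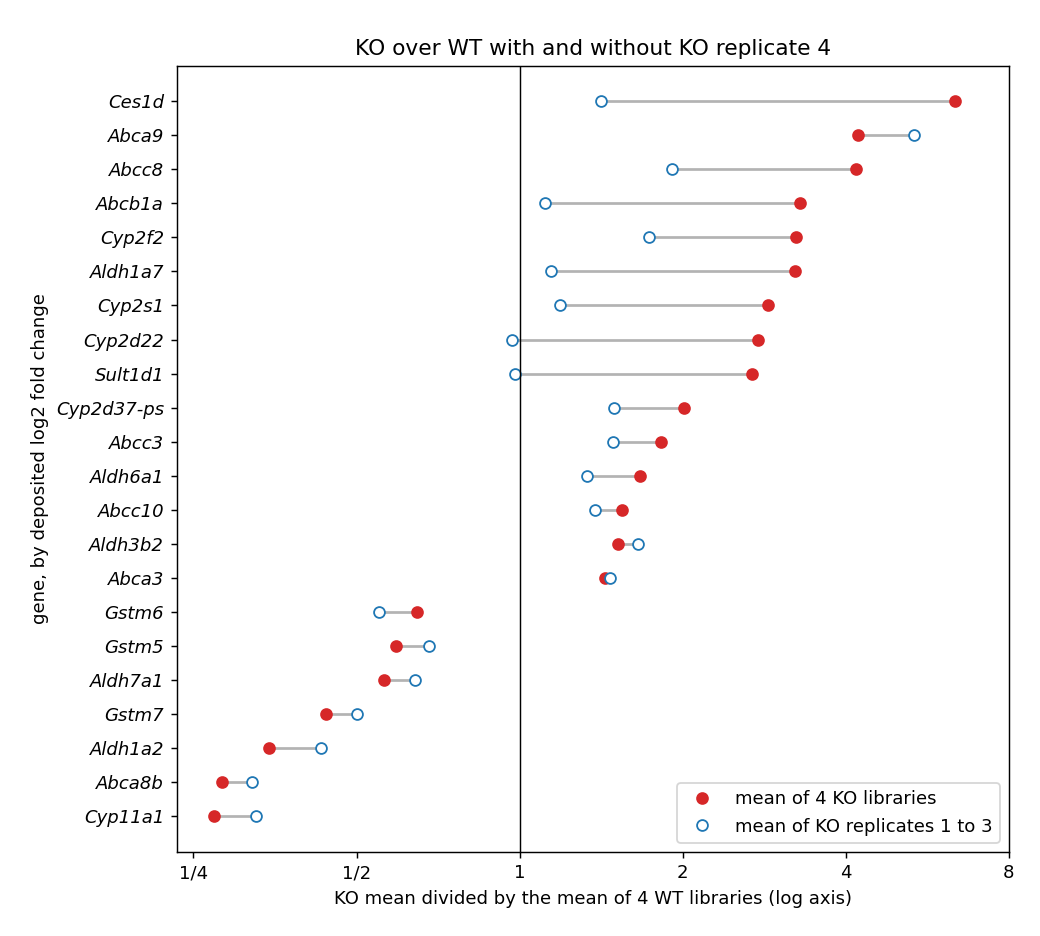
Ratio of the KO mean to the mean of 4 WT libraries for 22 of the 23 genes, on a log axis; filled red points use all 4 KO libraries and open blue points leave out KO replicate 4. Ratios of Ces1d, Abcb1a, Aldh1a7, Cyp2s1, Cyp2d22 and Sult1d1 shrink towards or past 1, while those of Abca3, Gstm7, Gstm5 and Cyp11a1 stay on their side.

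Refits were also made on the recovered reads. With edgeR and the deposited size factors, 8 members listed higher and 4 listed lower kept an unadjusted p below 0.05, 52.2% of the 23, beside 77.9% of the listed genes. With TMM factors, which came from the listed genes alone, the split was 4 higher and 7 lower. That was 47.8% of the 23, beside 62.3% of the listed genes. The median log2 fold change over all listed genes moved by -0.16 with these factors. Gstm7, Gstm5, Cyp11a1 and Abcc3 kept their sign and an unadjusted p below 0.05 in all 15 refits, which included leaving out each library, and Abca3 did so in 14. Abcb1a, Aldh1a7, Cyp2f2 and Aldh7a1 did so in 3, Sult1d1, Cyp2s1 and Cyp2d37-ps in 2 and Cyp2d22 in 1. How many of all listed genes did so in every refit was not counted, so no background stands beside these counts per gene.

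A pattern across libraries was noticed after the values were seen. In Cyp2s1, Cyp2f2, Aldh1a7, Sult1d1 and Abcb1a, WT replicates 2 and 3 both exceeded WT replicates 1 and 4, and KO replicates 2 and 4 both exceeded KO replicates 1 and 3. These 5 are 31.3% of the members listed higher, beside 16.5% of all genes listed higher. The spread within the WT group alone was wide, from 553 to 2082 normalized counts in Abcb1a and from 13.2 to 87.0 in Cyp2f2. Of the 5 listed mature colonocyte markers 3 had the same pattern, namely Mep1a, Cdhr5 and Ceacam20, and Lypd8 and Cdhr2 did not. Apob, a small intestine marker, Hnf4a, a regulator of gut and liver epithelium, and Mgst3, a membrane-bound glutathione transferase, had it as well. The remaining genes listed from the marker and pathway lists read below did not. None of the 14 listed B and plasma cell markers had it: all 14 were higher in KO replicates 2 and 4 than in KO replicates 1 and 3, but 0 followed the order of the WT libraries. Mep1a, a protease of the absorptive brush border, had 251, 662, 679 and 204 normalized counts in WT and 573, 837, 294 and 4431 in KO, whereas in Lypd8 KO replicate 2 was the lowest KO library.

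**Figure D4:**
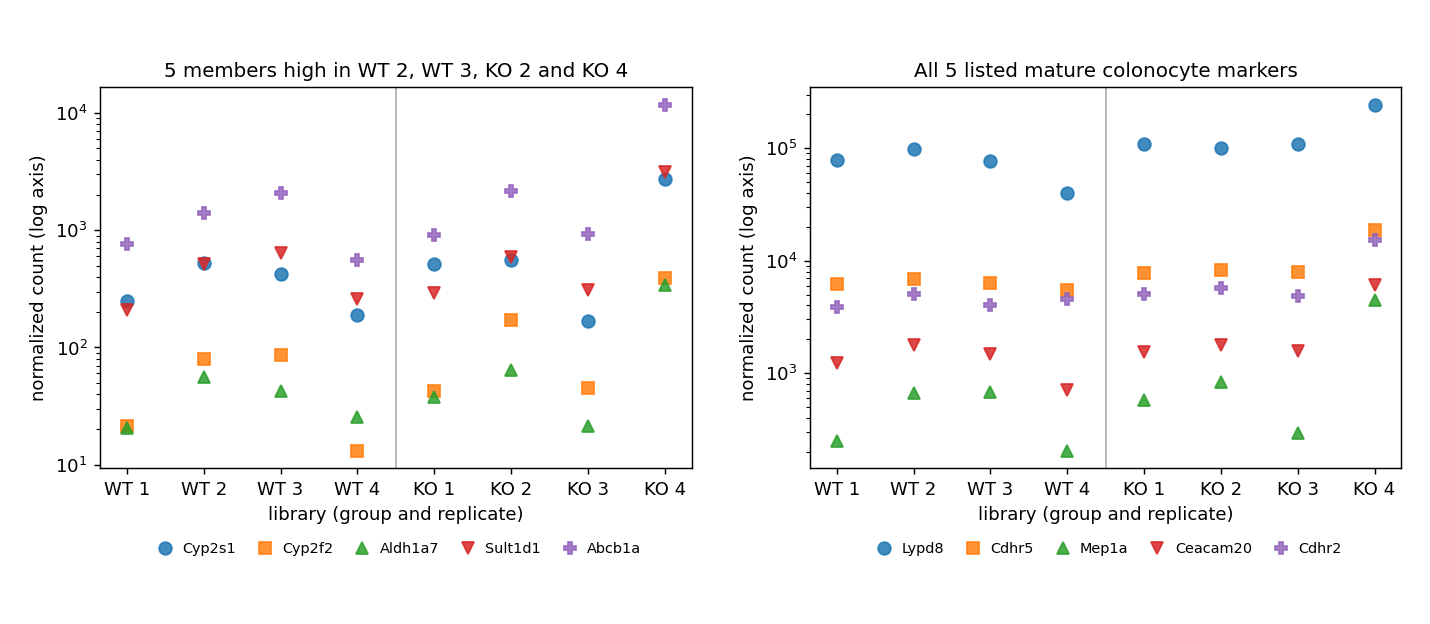
Normalized counts in each library, on log axes, with WT left and KO right of the line; the left panel shows the 5 members chosen for their order across libraries and the right panel all 5 listed mature colonocyte markers. In the 5 members WT replicates 2 and 3 lie above WT replicates 1 and 4, an order that Lypd8 and Cdhr2 do not follow, and KO replicate 4 is the highest library in all 10 genes.

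Markers of other cells and states were read beside these values. The counts of listed markers stand beside 7.15% of the 19985 genes implied by the adjusted p-values. Of 20 mature colonocyte markers 5 were listed, all higher. Their summed level ran from 50806 to 112377 normalized counts in WT and from 117969 to 288550 in KO. The highest sum was that of KO replicate 4, at 2.36 times the mean of the other KO libraries. Most of each sum was Lypd8, at 39837 to 98114 in WT and 101311 to 243970 in KO. Lypd8 and Cdhr5 had separate groups, while Mep1a, Ceacam20 and Cdhr2 overlapped between groups. None of the 5, Lypd8, Cdhr5, Mep1a, Ceacam20 and Cdhr2, was at 0 in any library. Of 20 B and plasma cell markers 14 were listed, all higher, with sums of 166 to 355 in WT and 326 to 3755 in KO, again highest in KO replicate 4. Bank1 was at 0 in WT replicate 1, Pax5, Cr2, Fcrla and Blk in WT replicate 2, and Ighd in WT replicates 1 and 3. Of 15 small intestine markers Apob alone was listed, with 528 to 1784 in WT and 6197 in KO replicate 4. Of 11 stem and proliferation markers 3 were listed, all lower, with sums of 5958 to 8050.2 in WT and 4412 to 6372 in KO. None of 8 hepatocyte or 7 general epithelial markers was listed, and 2 of 16 stromal markers were, both higher, at 100.2 to 175 in WT and 171 to 286 in KO. Each sum holds listed markers only, and these were selected for a group difference. A gap between the WT and KO sums is therefore partly built in and does not measure cell content. The part of these cell types in the members' values was not tested, and in bulk tumours fewer cells of a type and less RNA per cell cannot be told apart.

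Other genes of the pathway came from 4 lists. Their counts stand beside 7.15% of the 19985 genes implied by the adjusted p-values, and were not tested. Of 20 Nrf2 and antioxidant genes, 1 was listed, Osgin1, at 206 ± 33.5 normalized counts in WT and 316 ± 121 in KO (SD, n = 4). Nqo1, Hmox1, Gclc, Gclm and Txnrd1, which serve as textbook Nrf2 targets, were not among the listed genes. The count of 1 in 20 lies near the listed share of all genes, so their absence is no result about Nrf2. Of 16 xenobiotic sensors and partners, 3 were listed, all higher: Hnf4a, a master regulator of gut and liver epithelium, Nr1i3, the constitutive androstane receptor, and Ppara, a fatty acid sensor. Hnf4a had 5904, 7600.2, 7820.1 and 7532 in WT and 8832, 9590.1, 9197 and 22661 in KO, with separate groups and a DESeq2 adjusted p of 0.649 in the authors' deposited table. The sensors Nr1i2 and Ahr were not listed.

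Of 32 further drug metabolism genes, 4 were listed, all higher and none at an adjusted p below 0.05. Pon3, a lactonase, had 451, 429, 400.5 and 416 normalized counts in WT and 625, 628, 536 and 583 in KO, the evenest difference of the 4, and the authors' deposited table puts its log2 fold change at 0.48 with a DESeq2 adjusted p of 0.279. Its highest library was KO replicate 2. Mgst3, a membrane-bound glutathione transferase, had 1925 ± 570 in WT and 3352 ± 1688 in KO, listed on the opposite side from the Gstm genes. KO replicate 4 held 5811, and KO replicates 1 to 3 held 2109 to 3068, which overlaps the WT range of 1188 to 2544. Without KO replicate 4 the Mgst3 ratio of means was 1.32, and its DESeq2 adjusted p in the authors' deposited table was 0.689. Ephx2, a soluble epoxide hydrolase, had 146 ± 50.1 in WT and 276 ± 116 in KO, and Fmo2, a flavin monooxygenase, 60.9 ± 25.2 in WT and 147 ± 98.9 in KO. Of 16 uptake carriers, 2 were listed higher and 2 lower. The carnitine carrier Slc22a5 had separate groups, at 158 ± 15.98 in WT and 235 ± 45.2 in KO. Slco2b1, an organic anion uptake carrier, had 44.1 ± 14.7 in WT and 96.3 ± 58.2 in KO, and Slc22a3, an organic cation carrier listed lower, had 52.9 ± 20.9 in WT and 15.2 ± 12.7 in KO.

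Whether members hold the match to the microRNA removed from the KO epithelium was read from their 3′ untranslated regions (UTRs). A microRNA lowers transcripts that pair with its seed, bases 2 to 8, which the 2 mature products of the locus share; capitals mark the seed (RefSeq, GRCm38.p6).
mmu-miR-29a-3p: uAGCACCAucugaaaucgguua
mmu-miR-29b-3p: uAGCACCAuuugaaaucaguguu
The match TGGTGCT was present in the longest annotated 3′ UTR of 1 of 22 members (4.55%), beside 167 of 1030 listed protein-coding genes (16.2%). The 3′ UTRs read had a median length of 603 bases in members and 1122.5 in listed genes. The one member was Abcc3, with the match at base 326 of 372, shown in capitals with its flanks because it is the only one.
Abcc3: agaccctgtacTGGTGCTgtctgagtcca
A match of these letters is a description and not a measured site.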

How the data were processed

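Total RNA of colon tumours was sequenced with a strand-marking kit, per the labels' protocols. HISAT2, DESeq2 and the build GRCh38 are named in the submitters' processing notes; that build is human, and the table's identifiers are of mouse strain C57BL/6NJ. The counter and its strand setting are not given in the sources used here. Per the file headers, the deposited table holds a normalized signal per library (counts divided by size factors), the mean of each group, and the log2 fold change, p-value and adjusted p-value.

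The authors' fold changes and p-values are the main comparison. As alternatives, whole reads were recovered (100% of values within 0.001 of a whole multiple of 1 step per library) and refitted over all 1428 listed genes with edgeR 4.0.16, DESeq2 1.42.0 and limma 3.58.1 in R 4.3.3, with Benjamini-Hochberg adjustment over 19985 genes. These refits draw their spread, and the TMM factors, from selected genes. The edgeR refit was also run on simulated data with the same spread for all genes and no library standing apart. That run therefore does not cover a library such as KO replicate 4 or the selection of the listed genes. In WT replicate 3 one step is close to 1, which makes the check for whole reads weaker there. Values of 22 members are given singly; 1 member and 2 genes of the lists stay in the counts but are not reported here by name. The rule was that members with separate groups, an adjusted p below 0.1 or the smallest p of their family, and Gstm7 and Abcb1a, have values per library, and the others means or ranges. Members and lists were chosen with earlier results of these data known. No label pairs WT and KO libraries. Promoters and microRNAs are from RefSeq tables and transcripts from GENCODE M21; no coordinate was converted between builds.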

Additional observations from a re-analysis of the deposited data

Results flagged for a closer look

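In groups of 4 libraries, a value is named here when its gap to the nearest other library passes Dixon's 95% limit as a share of the group's range. For unselected groups of normally distributed values, chance passes this limit in about 1 in 20. The genes here were listed for a group difference and were read in the same libraries. That rate therefore cannot be set against the count below, which is a description. Of 46 groups, 9 had such a value, and in all 9 it was KO replicate 4 standing above the other KO libraries. For 8 of them, its normalized counts were 2764 for Cyp2s1, 727 for Cyp2d22, 339.5 for Aldh1a7, 992.2 for Ces1d and 3172 for Sult1d1. Among the transporters they were 5158 for Abcc3, 63.6 for Abcc8 and 11805 for Abcb1a. No WT group had such a value.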

How the results depend on the processing

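The 16 members listed higher and 7 listed lower in the deposited table were counted again at an unadjusted p below 0.05 with the same sign. Members higher came to 14 with DESeq2, 8 with edgeR and with edgeR at a mean of at least 10, 6 with limma on log2(value + 1), 5 with limma on log2(value + 0.1) and 4 with TMM factors; members lower came to 7 with DESeq2 and with TMM factors, 5 with either limma fit and with the filter on the mean, and 4 with edgeR. With DESeq2 91.3% of the members remained, beside 94.9% of the listed genes. With edgeR these shares were 52.2% and 77.9%, and with TMM factors 47.8% and 62.3%. The limma fits kept 47.8% beside 71.9% and 43.5% beside 68.9%. With the filter on the mean 56.5% remained, beside 75.4% of the listed genes fitted. Without 1 replicate, edgeR kept 2 to 13 higher and 3 to 6 lower. Without WT replicate 4 it kept 2 higher and 4 lower, 26.1% of the members beside 45% of the listed genes. Without KO replicate 4 it kept 4 higher and 4 lower, 34.8% beside 51.9%. The members' share was the larger without KO replicate 1 (65.2% beside 59.8%) and KO replicate 3 (73.9% beside 64.3%). It was the smaller without any other replicate. At an adjusted p below 0.05 the 1 member, Gstm7, remained with DESeq2, at 0.022, and 0 members passed with edgeR, limma, TMM factors, the filter or any replicate left out; 12 members stood below an unadjusted p of 0.05 with edgeR. With the replicate block 4 higher, 4 lower and 0 at an adjusted p below 0.05 remained. That was 34.8% of the members, beside 39.1% of the listed genes. The same-numbered libraries' deviations correlated at 0.0539, -0.02, -0.19 and -0.238, and those of differently numbered libraries at -0.125 to 0.239. No label pairs the libraries, and these correlations cannot show whether they share more than a number. The 6 members with separate groups became 5 with TMM and 6 to 9 without 1 replicate. The log2 fold change reversed without KO replicate 4 for Cyp2d22 and Sult1d1; leaving out 1 replicate at a time, it ran from -0.0466 to 1.81 for Cyp2d22 and from -0.0302 to 1.74 for Sult1d1. For these differences the cause was not tested. Full library totals were not analysed here, so no limit from depth is given.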
